A study of Mus musculus with 4 samples.

Results

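The 9 chemoattractant receptors described here are Fpr1, Fpr2, C5ar1, C3ar1, Ptafr, Ccr1, Ccr2, Cx3cr1 and Cxcr4, taken as every non-control probe whose gene name on the array is 1 of these symbols. They are 9 of 24788 named genes on the arrays and were represented by 13 probes, with 2 probes each for Fpr2, Ptafr, Cx3cr1 and Cxcr4. Of the 9 receptors, 7 were well above background on all 4 arrays, Ccr1 was well above background only on the siGFP array with iron, and Fpr1 on none.

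Chemoattractant receptors are G-protein-coupled receptors by which myeloid cells sense gradients of bacterial peptides, complement fragments, lipids and chemokines and move towards their source. Ligand binding releases G protein subunits that drive calcium release, phosphoinositide 3-kinase and actin remodelling, after which receptor kinases and arrestins silence the receptor. In macrophages these receptors govern recruitment to injured or infected tissue and also tune phagocytosis and inflammatory output.

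The cells were RAW264, a mouse macrophage-like line of BALB/c origin. The 4 groups were cells given siRNA against Tfe3 and Tfeb and then iron, cells given the same siRNA without iron, cells given siRNA against GFP and then iron, and cells given siGFP without iron. Iron was 500 µM ferric chloride for 24 h, begun 48 h after transfection, and all groups were transfected. Tfe3 and Tfeb are transcription factors of lysosomal and autophagy genes, and the design asks how their knockdown alters the response to iron. Each group was 1 sample on 1 single-colour array, so every difference is between 2 arrays, without replicates, and no test was made. RNA came from whole cultures, in which fewer cells of a type and less RNA per cell cannot be told apart.

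All 12 macrophage markers were well above background on all 4 arrays. The 75th percentile lay at processed signals of 592.7 to 636.3, and the lowest signal well above background was 20.5 to 22.3. The Tfe3 signal in siTfe3/Tfeb cells was 68.4% of that in siGFP cells with iron and 60.6% without, but the Tfeb signal was 112% and 91.0%. The 4 arrays lay on 1 slide and were scanned together.

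Each value below is a processed signal in arbitrary units, with the scanner software's own error after the ± sign. A difference is log2 of the signal over the array's 75th percentile in the first group minus the same in the second, with both software errors combined. Probes were compared with themselves only, since brightness also depends on the probe. The software error covers spot measurement and not the spread between cultures. It includes a multiplicative error of 10% set in the file headers. For bright probes it is therefore close to 10% of the signal, and the error of 0.20 on a difference is a setting, not a measured spread. On 300 probes spotted 10 times on each array, the SD of a log2 difference between single spots was 0.063 at log2 levels above 2 and 0.26 at levels from -4 to -2, against software errors of 0.20 and 0.25. A gene was called higher or lower from 2-fold, a log2 difference of 1.

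Stretches of 30 bases from both probes of Fpr2, Ptafr and Cx3cr1 are shown because the results for these genes compare their probes. All read 5′ to 3′ in the sense of the transcript, and capitals mark AATAAA, the sequence of the usual polyadenylation signal.
Fpr2 brighter probe, bases 1 to 30: agtcccattccacttctgccttccttacct
Fpr2 dimmer probe, bases 1 to 30: aaattcttgacatgtttgttaacccaacaa
Ptafr brighter probe, bases 22 to 51: tgtaaccagaggAATAAAcacagaagttga
Ptafr dimmer probe, bases 1 to 30: tgaaaaattaatctctgcttattaaagcca
Cx3cr1 brighter probe, bases 27 to 56: tgtaattctgtcAATAAAcattggtttcct
Cx3cr1 dimmer probe, bases 1 to 30: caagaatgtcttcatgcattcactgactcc
On the array's mm9 coordinates the Fpr2 probes lie on the plus strand at chr17:18030798-18030857 and chr17:18030540-18030599. The Ptafr probes lie on the plus strand at chr4:132136722-132136781 and chr4:132136231-132136290. The Cx3cr1 probes lie on the minus strand at chr9:119957811-119957870 and chr9:119959018-119959077. The single probes lie at chr7:16832094-16832135 for C5ar1, chr6:122798222-122798281 for C3ar1, chr9:123877790-123877849 for Ccr1 and chr17:18013609-18013668 for Fpr1, all on the minus strand, and at chr9:124022948-124023007 on the plus strand for Ccr2. The Cxcr4 probes lie on the minus strand at chr1:130485079-130485138 and chr1:130486114-130486173. Exon and untranslated positions were not analysed here. In each of the 4 genes with 2 probes the brighter one begins further 3′ in the transcript, by the array's annotation at base 1177 against 919 for Fpr2, 1760 against 1269 for Ptafr, 3683 against 2476 for Cx3cr1 and 1451 against 416 for Cxcr4.

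**Figure D1:**
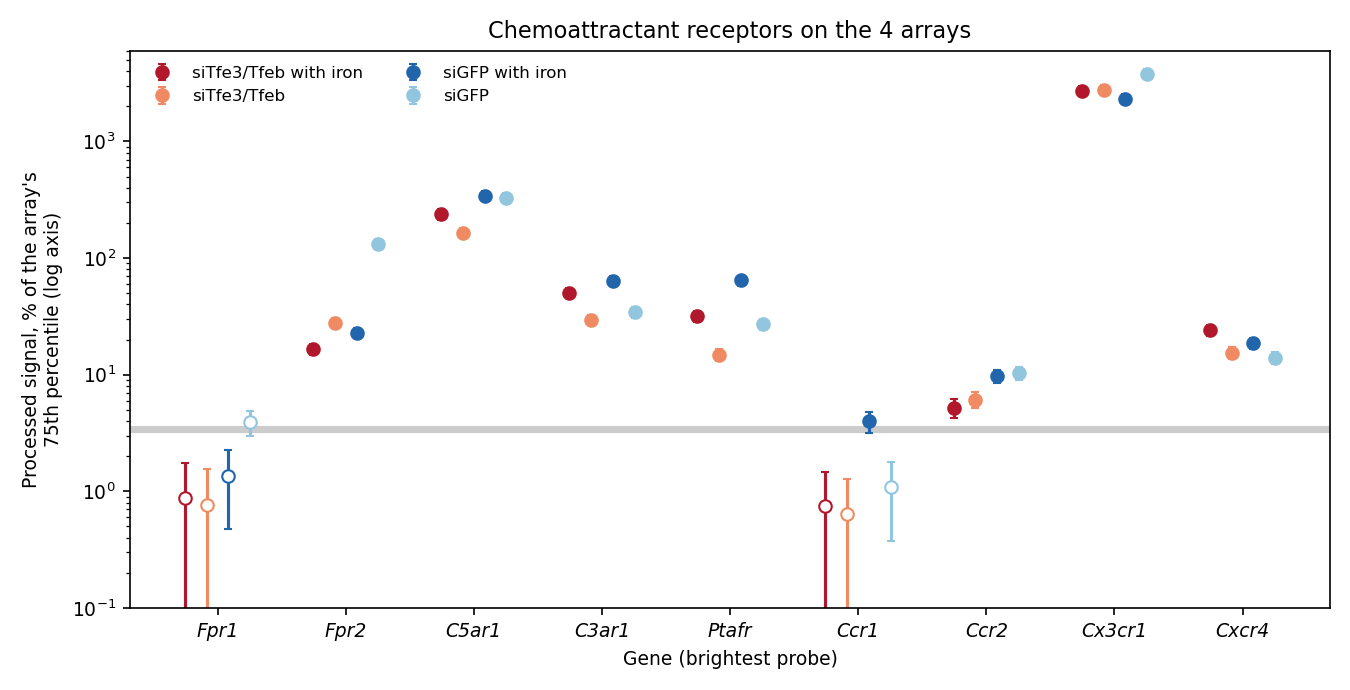
Processed signal as a percentage of the array's 75th percentile (log axis) for the brightest probe of each receptor on the 4 arrays, in the order siTfe3/Tfeb with iron, siTfe3/Tfeb, siGFP with iron and siGFP; bars are the software error and are cut off at the axis. Open symbols are not well above background, and the gray band spans the lowest signals well above background on the arrays; all Fpr1 points and 3 of the 4 Ccr1 points are open, and the Fpr2 point of siGFP cells without iron, at 133%, stands above the other 3, at 16.5% to 28.0%.

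Fpr2, which binds formylated peptides, serum amyloid A and annexin A1, had the largest differences among the 7 receptors measured on all arrays. Its signal was 97.9 ± 10.7 on the siTfe3/Tfeb array with iron, 178 ± 18.2 on the siTfe3/Tfeb array, 144 ± 15.1 on the siGFP array with iron and 822 ± 82.4 on the siGFP array. The siGFP array without iron was the highest, and all others lay well below it. In siGFP cells Fpr2 with iron was 17.3% of the level without, a log2 difference of -2.53 ± 0.21 and 5.79-fold lower. In siTfe3/Tfeb cells it was 59.1% of the level without iron, a log2 difference of -0.76 ± 0.22. The iron response was thus 1.77 ± 0.30 higher in siTfe3/Tfeb than in siGFP cells on the log2 scale, which here means a smaller decrease.

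The knockdown difference of Fpr2 was likewise larger without iron. Against siGFP cells, siTfe3/Tfeb cells with iron stood at 72.0%, a log2 difference of -0.47 ± 0.22, and without iron at 21.1%, a log2 difference of -2.25 ± 0.21. In order of level, each array differed from the next by more than the software error, the closest being siTfe3/Tfeb above siGFP with iron by 0.29 ± 0.21. The dimmer probe was 37.2 ± 5.73 on the siTfe3/Tfeb array and 202 ± 20.7 on the siGFP array, a log2 difference of -2.48 ± 0.27, and it was not well above background on either array with iron. Its readings there were 4.55 ± 4.56 in siTfe3/Tfeb cells and 14.0 ± 5.02 in siGFP cells. With the mean over both probes Fpr2 passed 2-fold also for iron in siTfe3/Tfeb cells, at -1.84, and for knockdown with iron, at -1.01. Both values include the dimmer probe's readings on arrays with iron, which were not well above background.

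Fpr1, the high-affinity receptor for bacterial formyl peptides, gave 5.16 ± 5.18 on the siTfe3/Tfeb array with iron, 4.89 ± 4.92 on the siTfe3/Tfeb array, 8.53 ± 5.56 on the siGFP array with iron and 24.4 ± 5.89 on the siGFP array. None of these was well above background, so no fold is given, although the highest reading, like that of Fpr2, was on the siGFP array without iron. Fpr1 and Fpr2 are neighbours in RefSeq's mouse gene order, followed by Fpr3 and Fpr-rs4, and neither of these relatives was well above background on any array.

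Neutrophils carry Fpr1 and Fpr2 at high levels, so their markers are given beside these genes. Of 12 neutrophil markers, 5 were well above background on all 4 arrays, namely Camp, Cebpe, Elane, Mmp8 and Mpo. Ly6g, Ngp, Ltf, Retnlg and Cxcr2 were on none. The 12 markers summed to 708% of the 75th percentile in siTfe3/Tfeb cells with iron and 566% without. In siGFP cells the sum was 739% with iron and 676% without. Most of that sum was Cebpe, a transcription factor of myeloid cells, with signals of 3549, 3094, 3895 and 3558 in the same order. S100a8 was well above background only in siGFP cells, at 67.7 with iron and 76.1 without, and S100a9 only in siGFP cells without iron, at 47.9. These markers were read in a cell line, and their relation to the Fpr2 differences was not tested.

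The promoter of Fpr2 is shown because this gene had the largest differences of the measured receptors. It is the 250 bases before the start site in RefSeq's GRCm38.p6 annotation, chr17:17887574-17887823 on the plus strand. Capitals mark a TTCNNNGAA match, the core of sites bound by STAT factors, and GAGGAA on the minus strand, the core of PU.1 sites.
Fpr2 promoter: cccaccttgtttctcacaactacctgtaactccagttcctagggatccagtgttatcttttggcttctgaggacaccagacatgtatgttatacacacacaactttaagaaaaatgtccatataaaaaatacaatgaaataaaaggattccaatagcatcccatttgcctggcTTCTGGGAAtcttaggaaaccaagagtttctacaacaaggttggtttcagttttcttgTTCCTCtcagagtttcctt
The STAT-type match begins at position -77 relative to the start site and the PU.1-type match at -19. TTCNNNGAA occurs on either strand in 8.30% of 32851 mouse promoters of 300 bases, 250 before the start site and 50 after it, and GAGGAA in 28.3%. Such matches describe the letters and are not binding sites.

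C5ar1, the receptor for the complement fragment C5a, was lower with Tfe3/Tfeb siRNA. Its signal was 1408 ± 141 on the siTfe3/Tfeb array with iron, 1049 ± 105 on the siTfe3/Tfeb array, 2143 ± 214 on the siGFP array with iron and 2034 ± 203 on the siGFP array. Both siTfe3/Tfeb arrays lay below both siGFP arrays. The level in siTfe3/Tfeb cells was 69.5% of that in siGFP cells with iron, a log2 difference of -0.52 ± 0.20, and 50.2% without iron, a log2 difference of -0.99 ± 0.20 that falls just short of 2-fold. The iron difference was 0.53 ± 0.20 in siTfe3/Tfeb cells and 0.06 ± 0.20 in siGFP cells, where the 2 arrays differed by less than the software error. C5ar2, its neighbour in gene order and a decoy receptor for C5a, had log2 knockdown differences of only 0.02 with iron and -0.22 without.

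C3ar1, the receptor for C3a, was higher with iron under both siRNAs. Its signal was 297 ± 30.03 on the siTfe3/Tfeb array with iron, 188 ± 19.3 on the siTfe3/Tfeb array, 402 ± 40.5 on the siGFP array with iron and 213 ± 21.8 on the siGFP array. Both arrays with iron lay above both arrays without. The iron difference was 0.76 ± 0.21 in siTfe3/Tfeb cells, a 1.69-fold higher level, and 0.90 ± 0.21 in siGFP cells, 1.86-fold, with neither reaching 2-fold. The knockdown differences were smaller, -0.36 ± 0.21 with iron and -0.22 ± 0.21 without.

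Ptafr, the receptor for the lipid mediator platelet-activating factor, differed with both iron and knockdown. Its signal was 188 ± 19.5 on the siTfe3/Tfeb array with iron, 94.6 ± 10.6 on the siTfe3/Tfeb array, 403 ± 40.7 on the siGFP array with iron and 168 ± 17.6 on the siGFP array. Within each siRNA the array with iron was higher, and at each iron state the siTfe3/Tfeb array was lower. With iron it was 2.14-fold higher in siTfe3/Tfeb cells, a log2 difference of 1.10 ± 0.22, and 2.37-fold higher in siGFP cells, 1.24 ± 0.21. Between siRNAs the level in siTfe3/Tfeb cells was 49.4% of that in siGFP cells with iron, a log2 difference of -1.02 ± 0.21, and 54.7% without, -0.87 ± 0.22. The iron responses differed by only -0.15 ± 0.30, which is within the software error.

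The calls of Ptafr lay close to the threshold. With normexp background correction its iron differences were 0.74 in siTfe3/Tfeb cells and 0.91 in siGFP cells. Its knockdown difference with iron was -0.77 with normexp, and -0.66 with the mean over both probes instead. Normexp was run with an offset of 50 added to every signal, which by itself draws log2 differences of dim probes towards 0. The dimmer Ptafr probe was well above background on the arrays with iron alone, at 36.5 ± 6.28 in siTfe3/Tfeb cells and 47.5 ± 7.21 in siGFP cells, a log2 difference of -0.30 ± 0.33 that is less than its error. Without iron it read 12.9 ± 4.99 in siTfe3/Tfeb cells and 13.9 ± 5.51 in siGFP cells, neither well above background. Both probes thus read higher with iron, but the dimmer one gave no knockdown difference beyond its error.

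The 250 bases before the Ptafr start site, chr4:132563817-132564066 on the plus strand of GRCm38.p6, are shown for comparison with Fpr2. Capitals again mark the minus-strand GAGGAA match, which begins at position -242 relative to the start site.
Ptafr promoter: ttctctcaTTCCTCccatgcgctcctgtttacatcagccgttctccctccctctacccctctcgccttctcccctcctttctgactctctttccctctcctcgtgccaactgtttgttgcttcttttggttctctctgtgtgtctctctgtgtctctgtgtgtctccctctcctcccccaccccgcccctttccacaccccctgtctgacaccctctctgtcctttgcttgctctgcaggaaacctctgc
All 9 receptors had a promoter in the RefSeq table. In 300 bases, 250 before and 50 after the start site, GAGGAA was found in 3 of the 9 (Fpr2, Ptafr and Ccr1), TTCNNNGAA in Fpr2 alone, and TGANNNNGC, the core of Nrf2 sites, in Ptafr, Ccr2 and Cx3cr1, against 41.3% of all promoters. Neither CACGTG, the E-box core bound by Tfe3 and Tfeb, nor its extended form TCACGTGA nor GGGANTTCC, an NF-kB form, was in these 9 windows, on either strand. They occur in 7.15%, 0.974% and 1.68% of all promoters. TCACGTGA contains CACGTG, and a window without a match says nothing of binding elsewhere.

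Ccr2, the receptor for the monocyte-attracting chemokines Ccl2, Ccl7 and Ccl12, was dim and lower with Tfe3/Tfeb siRNA. Its signal was 30.8 ± 5.57 on the siTfe3/Tfeb array with iron, 38.9 ± 5.90 on the siTfe3/Tfeb array, 61.3 ± 7.91 on the siGFP array with iron and 64.2 ± 8.06 on the siGFP array. Both siTfe3/Tfeb arrays lay below both siGFP arrays. The knockdown difference was -0.91 ± 0.32 with iron and -0.76 ± 0.28 without. Normexp correction, with its offset of 50 added to these dim signals, gave -0.28 and -0.36. The iron differences of -0.23 ± 0.34 in siTfe3/Tfeb cells and -0.08 ± 0.26 in siGFP cells were within the software error.

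Ccr1, a receptor for Ccl3, Ccl5, Ccl6 and Ccl9, gave 4.46 ± 4.26 on the siTfe3/Tfeb array with iron, 4.07 ± 4.09 on the siTfe3/Tfeb array, 25.1 ± 5.13 on the siGFP array with iron and 6.70 ± 4.40 on the siGFP array. Only the reading on the siGFP array with iron was well above background. Against the lowest signals well above background on the other arrays, it was at least 1.15-fold higher with iron in siGFP cells, and siTfe3/Tfeb cells with iron were at least 1.12-fold lower than siGFP cells with iron. In gene order Ccr1, Ccr1l1, Ccr3 and Ccr2 follow each other. Ccr1l1 was well above background on no array, and Ccr3 only in siGFP cells without iron at 25.3.

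Cx3cr1, the receptor for fractalkine and a marker of patrolling monocytes and tissue macrophages, was lower with iron in siGFP cells. Its signal was 16208 ± 1621 on the siTfe3/Tfeb array with iron, 17661 ± 1766 on the siTfe3/Tfeb array, 14526 ± 1453 on the siGFP array with iron and 23592 ± 2359 on the siGFP array. The siGFP arrays were the highest and the lowest, and both siTfe3/Tfeb arrays lay between them. The iron difference was -0.02 ± 0.20 in siTfe3/Tfeb cells and -0.72 ± 0.20 in siGFP cells, where the level with iron was 60.8% of that without. The iron difference was thus 0.70 ± 0.29 less negative in siTfe3/Tfeb cells. The knockdown difference had opposite signs, 0.24 ± 0.20 with iron and -0.46 ± 0.20 without. The gap between these is the same contrast of the arrays as the gap between the iron differences.

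The dimmer Cx3cr1 probe was well above background on all 4 arrays and gave the same order. It read 5029 in siTfe3/Tfeb cells with iron, 5680 in siTfe3/Tfeb cells, 4105 in siGFP cells with iron and 7083 in siGFP cells. Its iron differences were -0.07 in siTfe3/Tfeb cells and -0.80 in siGFP cells, and its knockdown differences 0.37 with iron and -0.36 without. Both probes read the same labelled RNA, so their agreement bears on the probes and not on the cultures.

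Cxcr4, the receptor for Cxcl12, was higher on both arrays with iron. Its signal was 143 ± 15.1 on the siTfe3/Tfeb array with iron, 98.2 ± 10.9 on the siTfe3/Tfeb array, 117 ± 12.8 on the siGFP array with iron and 86.6 ± 10.03 on the siGFP array. The iron difference was 0.64 ± 0.22 in siTfe3/Tfeb cells, 1.56-fold, and 0.42 ± 0.23 in siGFP cells, 1.34-fold. With normexp correction and its offset these were 0.38 and 0.22, the latter within the software error. The knockdown difference was 0.36 ± 0.22 with iron and 0.14 ± 0.23 without. The other Cxcr4 probe was not well above background on any array.

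**Figure D2:**
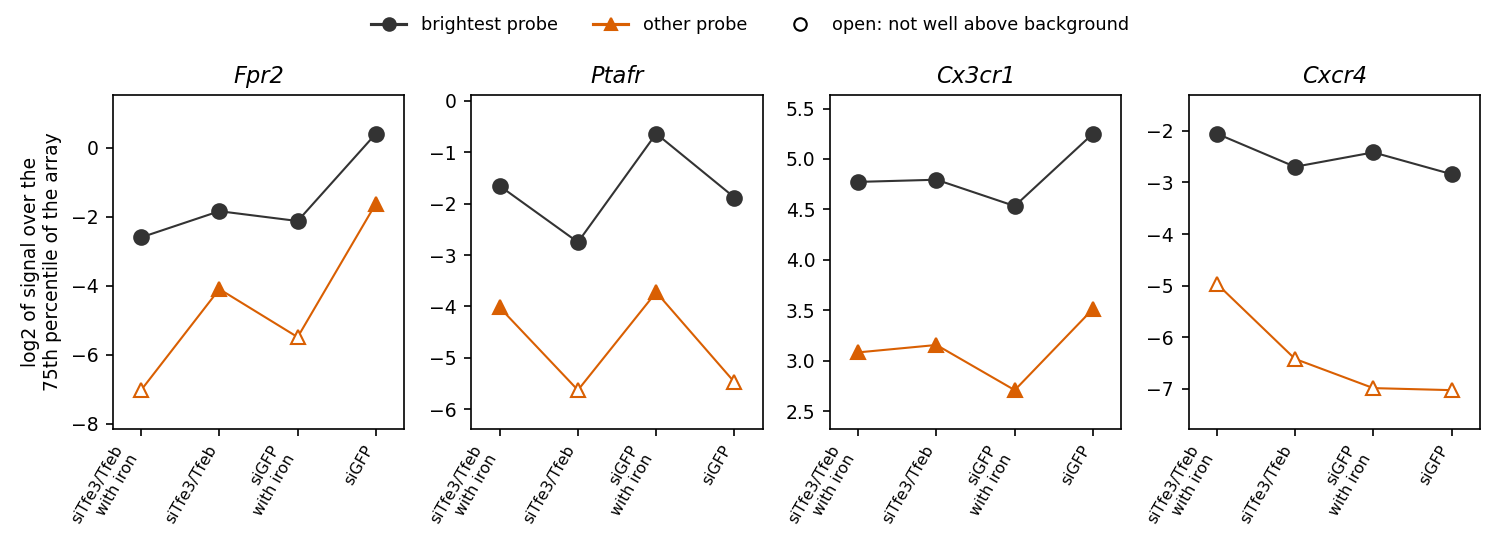
Log2 of signal over the array's 75th percentile for the brightest probe (circles) and the other probe (triangles) of the 4 receptors with 2 probes, on the arrays siTfe3/Tfeb with iron, siTfe3/Tfeb, siGFP with iron and siGFP; open symbols are not well above background, each panel has its own vertical scale, and lines join the points of a probe. The Cx3cr1 probes run in parallel, with iron differences in siGFP cells of -0.72 and -0.80, while the Cxcr4 triangles are all open.

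Counted together, few receptors passed 2-fold in any comparison. For iron in siTfe3/Tfeb cells 1 receptor was higher (Ptafr) and 0 lower, with 1.79% of all genes with a value called higher and 0.7% lower. For iron in siGFP cells 1 was higher (Ptafr) and 1 lower (Fpr2), with 1.55% of all genes higher and 0.352% lower. For knockdown with iron 0 were higher and 1 lower (Ptafr), with 0.966% of all genes higher and 1.76% lower. For knockdown without iron 0 were higher and 1 lower (Fpr2), with 1.47% of all genes higher and 2.09% lower. For the iron response, Fpr2 alone was at least 2-fold higher in siTfe3/Tfeb than in siGFP cells, where its decrease was larger, and 0 were lower. Of 13825 genes 0.282% were higher and 0.347% lower. With 9 receptors, these counts are too small to set the receptors apart from other genes.

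The directions of the 7 measured receptors differed between comparisons. For knockdown without iron 6 of 7 were below 0, with a median log2 difference of -0.76 against -0.03 over all genes, and 46.6% of all genes were above 0. For knockdown with iron 5 of 7 were below 0, with a median of -0.47 against -0.02 over all genes, of which 47.2% were above 0. For iron 4 of 7 were above 0 under each siRNA, with medians of 0.53 in siTfe3/Tfeb cells and 0.06 in siGFP cells, against -0.01 and -0.02 over all genes, of which 49.0% and 46.0% were above 0, close to the receptors' share. Both knockdown comparisons share an array with each iron comparison, so these counts are not independent.

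**Figure D3:**
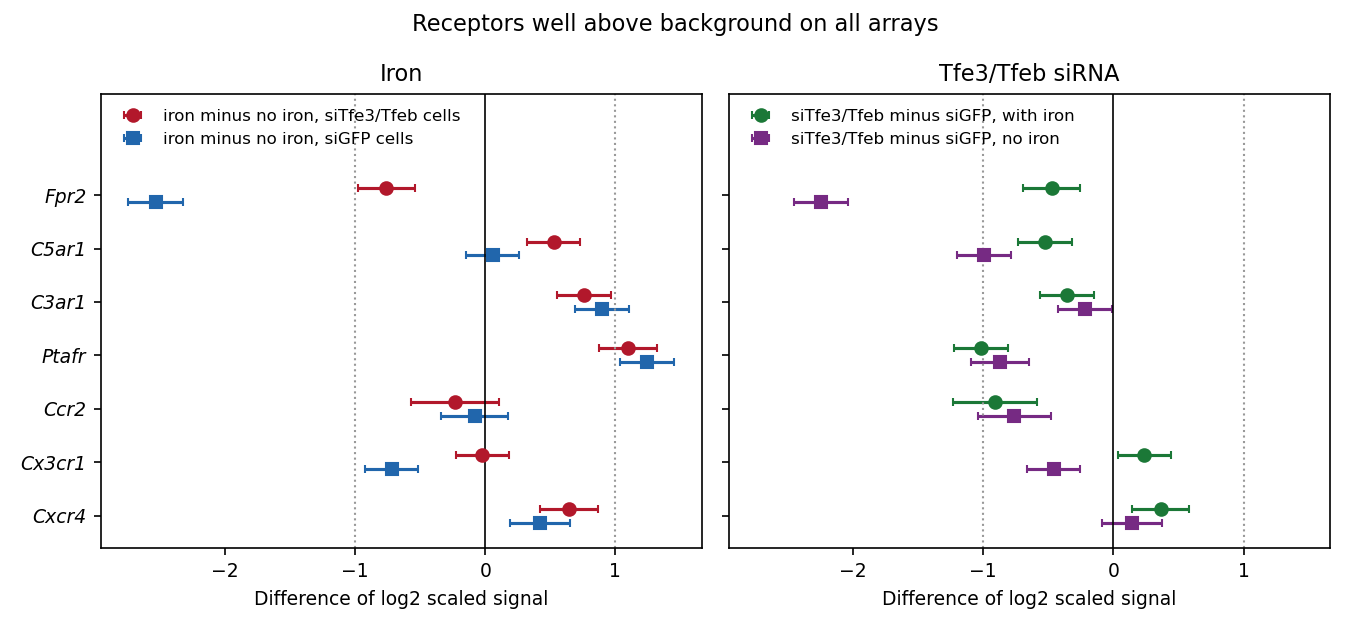
Differences of log2 scaled signal for the 7 receptors well above background on all arrays, iron minus no iron on the left and siTfe3/Tfeb minus siGFP on the right; bars are the software error and dotted lines mark 2-fold. Fpr2 lies past 2-fold for iron in siGFP cells, at -2.53, and for knockdown without iron, at -2.25; its other values are -0.76 and -0.47. Ptafr stands at 1.10 and 1.24 for iron.

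Of 19 genes for ligands of these receptors on the arrays, 15 were measured. With iron 3 ligands were at least 2-fold higher and 0 lower in siTfe3/Tfeb cells, and 4 higher and 2 lower in siGFP cells. Of all genes 1.79% and 1.55% were called higher with iron in the same order, and 0.7% and 0.352% lower. With knockdown 0 were higher and 5 lower, both with and without iron. There 1.76% and 2.09% of all genes were called lower, and 0.966% and 1.47% higher. Their median was -0.52 for knockdown with iron and -0.84 without, against -0.02 and -0.03 over all genes. For iron it was 0.42 in siTfe3/Tfeb cells and 0.36 in siGFP cells, against -0.01 and -0.02 over all genes.

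For the Ccr2 ligands, Ccl2 had log2 iron differences of 2.12 in siTfe3/Tfeb cells and 2.13 in siGFP cells, and knockdown differences of -2.85 with iron and -2.84 without. Ccl7 had 0.75 and 2.14 for iron, and -2.23 and -0.84 for knockdown, in the same order. Ccl12 had 0.96 and -0.12 for iron, and -1.15 and -2.22 for knockdown. Ccr2 and its 3 ligands therefore all had lower readings in siTfe3/Tfeb cells. Ccr2 was dim, however, and its knockdown differences were only -0.28 with iron and -0.36 without under normexp. Ccl2 and Ccl7 read higher with iron under both siRNAs, and Ccl12 in siTfe3/Tfeb cells alone. Ccr2 had no iron difference beyond its error. Among the ligands of Ccr1, Ccl5 had iron differences of -0.14 in siTfe3/Tfeb cells and -0.27 in siGFP cells and knockdown differences of 0.05 with iron and -0.09 without. Ccl3 was higher with iron, 2.03 in siTfe3/Tfeb cells and 1.99 in siGFP cells, and Ccl6 was lower with knockdown, -2.42 with iron and -1.91 without. Ccl9 was also lower with knockdown, -1.20 with iron and -1.02 without. Ccl4, a chemokine close to Ccl3, was higher with iron, 2.44 in siTfe3/Tfeb cells and 2.10 in siGFP cells, and had knockdown differences of -0.85 with iron and -1.18 without.

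For iron, receptor and ligand readings went in opposite directions for C3ar1. For knockdown C3 had 0.28 with iron and -0.37 without, where C3ar1 had -0.36 and -0.22. C3, the precursor of its ligand C3a, had iron differences of -0.91 in siTfe3/Tfeb cells and -1.56 in siGFP cells, while C3ar1 had 0.76 and 0.90. The ligands of Fpr2 differed among themselves. Saa3, a serum amyloid A protein, had iron differences of -0.17 in siTfe3/Tfeb cells and -1.66 in siGFP cells, where Fpr2 had -0.76 and -2.53, but its knockdown differences were 0.59 with iron and -0.90 without, where Fpr2 had -0.47 and -2.25. Anxa1 had 0.18 and 0.28 for iron, Camp, the precursor of a cathelicidin peptide, had 0.12 and 0.36, and Saa1 had 0.06 and -0.50, none past 2-fold. Cx3cl1, the fractalkine gene, had 0.64 and 0.58 for iron, and -0.82 with iron and -0.87 without for knockdown. Camp and Cx3cl1 were dim, with signals of 25.7 to 39.5 and 24.4 to 66.0 over the arrays, so their differences are uncertain. Hc, the precursor of C5a, and Cxcl12, a ligand of Cxcr4, were not well above background on any array. Mif, also in the ligand list, was bright on all arrays, at signals of 120984 to 142377. Its iron differences were -0.004 in siTfe3/Tfeb cells and -0.05 in siGFP cells, and its knockdown differences 0.21 with iron and 0.16 without.

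**Figure D4:**
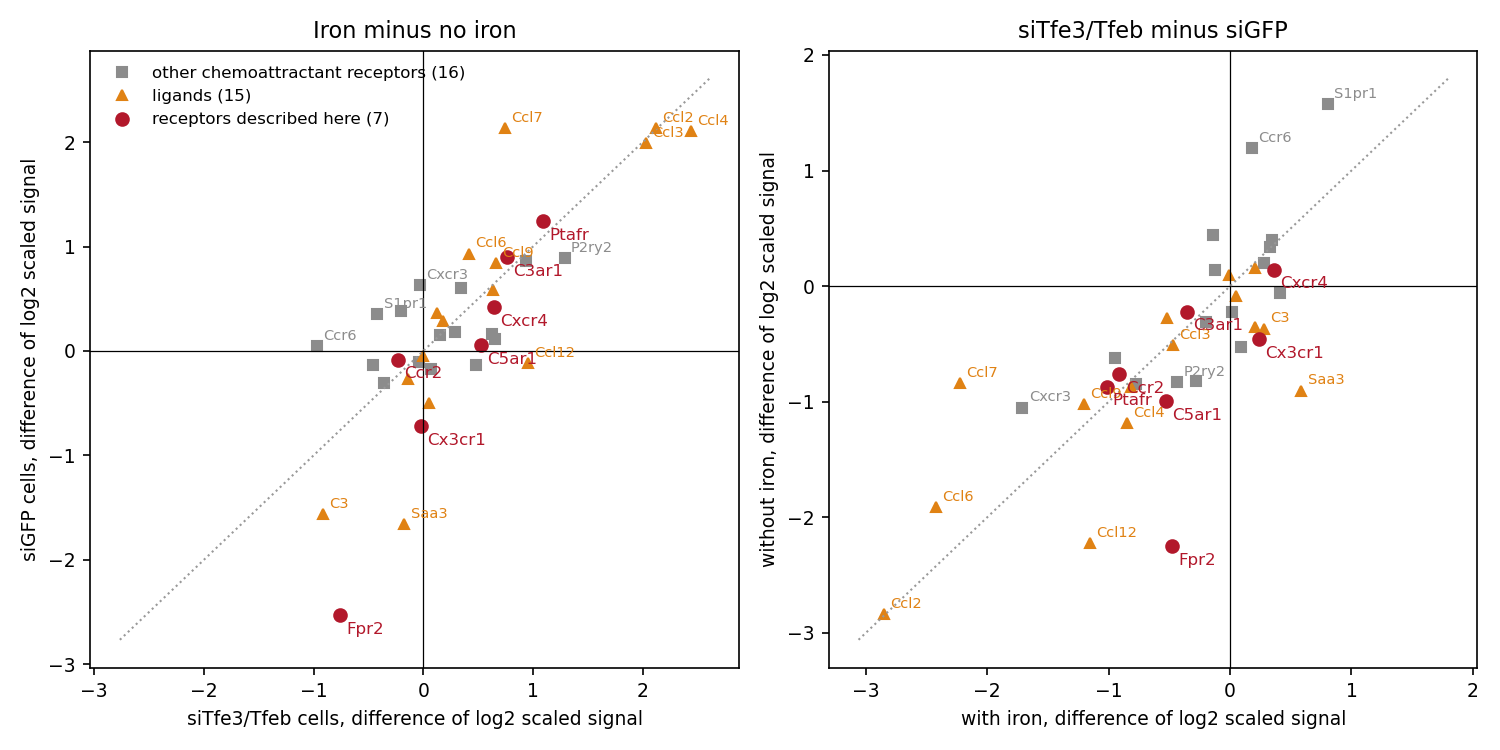
Differences of log2 scaled signal of the receptors described here (7), the genes of their ligands (15) and other chemoattractant receptors (16), for iron on the left (siTfe3/Tfeb cells horizontal, siGFP cells vertical) and for knockdown on the right (with iron horizontal, without iron vertical). The dotted lines mark equal differences and the axes of a panel share an array with those of the other; Fpr2 lies off the line at -0.76 and -2.53 for iron, and Ptafr near it at 1.10 and 1.24.

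Of 34 other chemoattractant receptors on the arrays, 16 to 18 were measured in a comparison. P2ry2, a nucleotide receptor, was higher with iron in siTfe3/Tfeb cells by 1.29 on the log2 scale, the sole 2-fold call for iron under either siRNA. Cxcr3, the receptor for Cxcl9 and Cxcl10, was lower with knockdown, by log2 differences of -1.71 with iron and -1.05 without. S1pr1, the sphingosine 1-phosphate receptor that guides exit from tissue, and Ccr6, the receptor for Ccl20, were higher with knockdown without iron, by 1.57 and 1.20, and had 0.81 and 0.18 with iron. The medians of these receptors lay between -0.14 and 0.16 in the 4 comparisons. Over all genes 0.352% to 2.09% were called per direction and comparison.

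The G proteins and effectors below the receptors had medians from -0.09 to 0.07 in the 4 comparisons. Of 34 such genes 33 were measured, and 0 passed 2-fold in any comparison. Over all genes 0.352% to 2.09% were called per direction and comparison, so 0 of 33 is close to that share. The Src-family kinase Fgr had iron differences of -0.18 in siTfe3/Tfeb cells and -0.79 in siGFP cells, and the calcium channel Itpr2 had 0.45 and 0.72. The G protein subunit Gna13 had knockdown differences of 0.48 with iron and 0.61 without, and the kinase Lyn -0.41 and -0.55. Of the genes for synthesis and breakdown of platelet-activating factor, 8 in all, 0 passed 2-fold with iron, also close to the share over all genes. Pla2g7, a secreted enzyme that breaks the lipid down, was well above background only in siGFP cells, at 81.1 with iron and 42.9 without. It was at least 3.61-fold lower in siTfe3/Tfeb cells than in siGFP cells with iron and at least 2.15-fold lower without.

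Of 19 genes for receptor shut-off and traffic on the arrays, 3 were higher by 2-fold with iron in each siRNA group and 0 lower, against 1.79% of all genes higher in siTfe3/Tfeb cells and 1.55% in siGFP cells. Rgs1, which speeds the shut-off of G proteins below chemokine receptors, had iron differences of 2.07 in siTfe3/Tfeb cells and 2.02 in siGFP cells. Rgs16, of the same family, had 2.00 and 1.29, and Rgs2 had 0.74 and 1.39. Grk3, a receptor kinase, was well above background only in siTfe3/Tfeb cells with iron and was at least 2.01-fold higher than without. With knockdown without iron Rgs16 was lower, -1.46, and Rgs12 higher, 1.07, where 2.09% of all genes were called lower and 1.47% higher. For knockdown with iron 0 passed 2-fold in either direction, where 1.76% of all genes were called lower and 0.966% higher.

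The genes with the most similar profiles over the 4 arrays were ranked by distance between log2 levels centred on each gene's mean. The ranking used 12469 genes with every array well above background, after names that are only identifiers were left out. For Fpr2 the nearest were Mchr1 at 0.78, Dmpk at 0.89, Ms4a4b at 1.01, Mx1 at 1.07 and Tgtp2 at 1.07. Fpr2 itself stood at -1.06, -0.30, -0.59 and 1.95 around its mean in siTfe3/Tfeb with iron, siTfe3/Tfeb, siGFP with iron and siGFP cells, where the siGFP array without iron stands out. For Ptafr the nearest were F10 at 0.089, Folr1 at 0.20, Hmga2 at 0.25, Cd200r1 at 0.25 and Tm4sf19 at 0.26. F10, the gene of coagulation factor X, stood at 0.15, -1.03, 1.07 and -0.18 against 0.08, -1.02, 1.09 and -0.15 for Ptafr. With 4 points per profile, such closeness describes these arrays alone.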

How the data were processed

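RNA of 4 RAW264 samples, 1 per group, was read on Agilent single-colour arrays. Per the file headers, the deposited scanner files hold spot intensity from Feature Extraction 12.0.3.1, background-subtracted and detrended within each array, not scaled between arrays. The submitters' log2 value table was also deposited: differences between its columns matched those of the scanner values with slope 1 and r 1, each probe was centred on its median over the arrays, column medians were 0.0013 (siTfe3/Tfeb with iron), -0.087 (siTfe3/Tfeb), 0.022 (siGFP with iron) and -0.0042 (siGFP), and its scaling between arrays is not given in the sources used here.

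Of 62976 spots, 59305 were not controls. Outlier-flagged spots were dropped, spots of a probe averaged, and log2 signal taken minus the array's 75th percentile; 0 spots were saturated. Of 56605 probes 33767 were named by RefSeq accession, 9866 by symbol and 12972 not. A gene took its brightest probe over the 4 arrays. A value was kept where both arrays were well above background; where 1 was, the bright signal was set against the higher of the dim array's lowest signal well above background and the dim probe's own, and is given as "at least". Calls were made from 2-fold. There are no replicates, so no test. On simulated arrays, calls at known folds were checked.

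The 9 receptors and the gene lists were chosen with earlier results of these data known. Named were all 9 receptors, the siRNA targets, the 5 nearest profiles of each receptor with a 2-fold difference, list members past 2-fold and up to 4 others of each list; genes singled out for their place in the gene order or as ligands were chosen after their values were seen. Alternatives were median centring, quantile normalization, another percentile, normexp background correction with limma 3.58.1 (offset 50), the deposited log2 table, mean over probes, no background filter, bounds left out, outliers kept and a 1.5-fold threshold. Python 3.11.15, pandas 2.3.3 and R 4.3.3 were used.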

Additional observations from a re-analysis of the deposited data

Results flagged for a closer look

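Cx3cr1 differed between siTfe3/Tfeb and siGFP cells in opposite directions at the 2 iron states: its log2 knockdown difference was 0.24 ± 0.20 with iron and -0.46 ± 0.20 without. The other probe gave 0.37 and -0.36. The reversal was not tested, since each group is 1 array.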

How the results depend on the processing

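No paired analysis was possible, with 1 array per group and no replicate numbers in the labels. Single receptors' log2 differences were recomputed under up to 10 alternatives. Of the values, 331 stayed within software error, 34 moved by more and 0 past 2-fold reversed. Leaving out bounds or filter cannot change a difference with both arrays well above background, and keeping outliers changed none. Median centring, another percentile and the deposited table shift each comparison by a constant below every software error. So much of the 331 was fixed in advance. Moves came under normexp, the mean over probes or, for Ccr1, without the filter. Normexp's offset of 50 alone draws differences of dim probes towards 0. Without the background filter, counts of receptors past 2-fold were 2 higher and 2 lower for iron in siGFP cells, 2 lower for knockdown without iron and 2 lower with iron, and 2 higher and 1 lower for the iron response, through Fpr1 and Ccr1 at background; the median for iron in siTfe3/Tfeb cells was 0.23. With normexp, with or without quantile normalization, 0 were higher for iron under either siRNA and 0 lower for knockdown with iron, and the median for knockdown without iron was -0.45, or -0.38 with quantile normalization. Median centring and the 75th percentile of spots well above background gave 0 lower for knockdown with iron. The deposited log2 table gave 2 lower for knockdown without iron, adding C5ar1. The mean over probes gave 2 higher and 1 lower for iron in siTfe3/Tfeb cells and a median of -0.51 for knockdown without iron. For knockdown with iron it gave 1 higher and 1 lower, where Ptafr at -0.66 lost its call and Fpr2 at -1.01 gained one. The added higher calls were Cxcr4, at 1.05 for iron in siTfe3/Tfeb cells and 1.20 for knockdown with iron. Each gained call used dimmer-probe readings not well above background. At 1.5-fold there were 3 higher and 1 lower for iron in siTfe3/Tfeb cells, 2 higher and 2 lower in siGFP cells, 4 lower for knockdown without iron, 2 lower with iron and 2 higher for the iron response. Over all genes the 1.5-fold shares were 4.93% higher and 4.41% lower, 4.70% and 2.25%, 6.62% and 8.32%, 4.19% and 6.64%, and 2.60% and 2.49%, in the same order.

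Fpr2 for iron ranged from -1.84 to -0.46 in siTfe3/Tfeb cells and from -3.20 to -2.11 in siGFP cells, for knockdown from -1.01 to -0.30 with iron and from -2.36 to -1.94 without, and in its difference of iron responses from 1.36 to 1.84. The mean over probes passed 2-fold in all of these, with dimmer-probe readings not well above background on arrays with iron. Over all genes, normexp with its offset of 50 called 151 higher and 17 lower for iron in siTfe3/Tfeb cells, 125 and 20 for iron with siGFP, 50 and 96 for knockdown with iron and 79 and 154 without. Leaving out the filter called 581 and 1277, 898 and 672, 451 and 1540, and 924 and 1055 in the same order, against 268 and 105, 233 and 53, 144 and 262, and 224 and 318 as reported. With bounds left out 64 were lower for iron in siTfe3/Tfeb cells, and 58 in the deposited log2 table. For the difference of iron responses 39 were higher and 48 lower as reported, 11 and 8 under normexp, 10 and 11 with quantile normalization added, 60 and 35 under median centring, 65 and 114 with the mean over probes and 818 and 1698 without the filter. The share of calls that were higher was 48.4% under median centring against 35.5% for knockdown with iron, and 89.9% under normexp and 88.6% with quantile normalization added against 71.8% for iron in siTfe3/Tfeb cells. For the difference of iron responses it was 57.5% under quantile normalization, 63.2% under median centring and 57.9% under normexp, against 44.8%. Receptors near background (Ccr2, Ccr1, Fpr1 and the dimmer probes of Fpr2 and Ptafr) carry the least certain values, as do the dim ligand genes Camp, Cx3cl1 and Ccl7.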
